A study of Zea mays with 12 samples.

Results

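Maize carries a family of genes for beta tubulin, and the values below follow tub5 and tub6 together with every other gene named tub plus a number, over endosperm of 4 genotypes. The members were all probe sets annotated to such a gene in the platform's annotation, after its symbols had been updated through the current gene table. The rule found 10 probe sets of 6 genes among the 17734 probe sets on the array: 4 of tub6, 2 of tub5 and 1 each of tub2, tub3, tub4 and tub7. All 10 were bright enough to be tested. The genes tub5 and tub6 were chosen by their signal differences between the genotypes on these arrays, so their values are described here and not tested, whereas the other 4 beta tubulins were tested.

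Beta tubulin pairs with alpha tubulin, and the pairs join end to end into microtubules. Plant cells use these fibres to pull chromosomes apart, to lay down the new wall between daughter cells and to guide the enzymes that spin cellulose. In maize the family is known for members that differ between organs. Cereal endosperm divides its nuclei, forms walls and then fills with starch and storage protein, and microtubules take part in the steps of division and wall formation.

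The groups, each given with the parent written first, were the reciprocal hybrids B73xMo17 and Mo17xB73 and the inbred lines B73 and Mo17. Endosperm was taken 19 days after pollination from plants grown in the field in a single season. Every genotype had 3 samples, from crosses made on 3 dates that all genotypes shared, and a sample pooled 6 endosperms from each of 6 ears, or 36 endosperms. Endosperm is triploid, with 2 genome doses from the female and 1 from the male, so the hybrids carry the same alleles in opposite dose if the first parent was the female, as is the convention. The labels do not state which parent was the female. A p-value therefore reflects how far such pools varied.

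Values are MAS5 signals, the brightness of a probe set on a linear scale, and 1 array of a single colour was used per sample. Of all 23 probe sets for markers of starchy endosperm (zeins, opaque2, starch enzymes), none averaged under 10.6, the 20th percentile of all signals, in any genotype. Of the 7 embryo markers 3 (EMB5, glb2 and kn1) fell below the brightness limit for testing. The other 4 (ole1, glb1, a4Lea and rab17) passed it, and whether their signal came from embryo tissue was not tested. Their brightest, ole1, averaged from 349 in B73 to 1225 in Mo17xB73, and glb1 from 97.1 in B73 to 594 in Mo17xB73. Of the 13 for green and maternal tissue 5 to 7 averaged under 10.6 in each genotype. The arrays were not equally bright: their mean signal after trimming was 340 to 353 in B73xMo17, 377 to 416 in Mo17xB73, 306 to 367 in B73 and 304 to 458 in Mo17, where replicate 1 was the dim one. Differences are given on the scale of log2(signal + 10.6), which understates the change of dim probe sets. On that scale the median of all 11747 probe sets tested was -0.22 for B73 minus Mo17 and -0.14 for B73xMo17 minus Mo17xB73. A probe set's level cannot be set against another's, and whether the probes match both lines' transcripts equally well was not tested. In pooled tissue, fewer cells of a type and less RNA per cell cannot be told apart.

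tub6, chosen by such differences, was the beta tubulin with the widest gap between the inbreds, and 3 of its 4 probe sets showed it. Probe sets are named here by the target number and the ending in their identifiers. These 3, the S1_at, S1_x_at and S1_a_at sets of target 2, share a target sequence by those identifiers, and the fourth, the S1_at set of target 1, stands on another. The signal of the target 2 S1_at set was 448, 569 and 413 in B73xMo17, 360.4, 489 and 461 in Mo17xB73, 663, 787 and 852 in B73, and 46.5, 40.7 and 55.2 in Mo17 (replicates 1, 2 and 3). All 3 B73 arrays lay above every other array and all 3 Mo17 arrays below, while the hybrids lay between and overlapped. The means were 476 ± 81.9 in B73xMo17, 437 ± 67.9 in Mo17xB73, 767 ± 96.1 in B73 and 47.5 ± 7.27 in Mo17 (SD, n = 3). The B73 mean was 16.2 times the Mo17 mean, and the fitted difference was 3.74 on the log2 scale (SE 0.19). Within each crossing date it was 3.56, 3.96 and 3.71. From the top of the 11747 differences it ranked at 67. Since tub6 was chosen by such differences, that rank is a description only.

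The same order was seen with the target 2 S1_x_at set, a probe set of the kind that can also bind related transcripts. It gave 413, 445 and 369 in B73xMo17, 312, 448 and 363 in Mo17xB73, 582, 757 and 733 in B73, and 84.0, 126 and 116 in Mo17. Again B73 was highest on every array and Mo17 lowest, with the hybrids overlapping between them. Its B73 mean was 6.34 times its Mo17 mean, a log2 difference of 2.56 (SE 0.19). The means were 691 ± 94.7 in B73 and 109 ± 22.1 in Mo17 (SD, n = 3).

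The gap was narrower on the target 2 S1_a_at set, a kind of probe set whose probes all bind several transcript forms of one gene. Its signals were 194, 218 and 187 in B73xMo17, 169, 239 and 218 in Mo17xB73, 241, 288 and 308 in B73, and 69.7, 159 and 132 in Mo17. The B73 arrays stood above all others and the Mo17 arrays below, although the margins were small: the lowest B73 array was at 241 and the highest hybrid array at 239. The log2 difference between B73 and Mo17 was 1.21 (SE 0.22), a ratio of means of 2.32. Without replicate 1 of Mo17, the dim array, it was 0.89.

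The fourth probe set went the other way in its means. The S1_at set of target 1 had 407, 585 and 453 in B73xMo17, 372, 659 and 683 in Mo17xB73, 462, 531 and 542 in B73, and 483, 749.6 and 779 in Mo17. Every genotype overlapped with its neighbours here, and no order of levels held beyond the spread. Its log2 difference of B73 minus Mo17 was -0.36 (SE 0.23), against a median of -0.22 over all probe sets, and -0.14 to -0.10 after the scalings. Across the 12 arrays, which fall into the 4 genotypes, the log2 levels of the 3 sets from the shared target correlated at 0.85 to 0.98 with one another, and at -0.40, 0.01 and -0.31 with the target 1 set. Those correlations describe the arrays and were not tested.

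Ratios of probe sets on the same array depend little on how bright that array is. The log2 ratio of the target 2 S1_at set to the target 1 set was -0.01 ± 0.14 in B73xMo17, -0.34 ± 0.26 in Mo17xB73, 0.57 ± 0.07 in B73 and -3.53 ± 0.39 in Mo17 (SD, n = 3). So the contrast of Mo17 with the other 3 genotypes is as wide within arrays as between them. The ratio of the target 2 S1_x_at set to the same probe set was -0.22 in B73xMo17, -0.56 in Mo17xB73, 0.42 in B73 and -2.50 in Mo17. That of the target 2 S1_a_at set was -1.21 in B73xMo17, -1.37 in Mo17xB73, -0.85 in B73 and -2.41 in Mo17. A ratio within an array shows that probe sets of one gene name differed unequally between the genotypes, and gives no level of either.

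**Figure D1:**
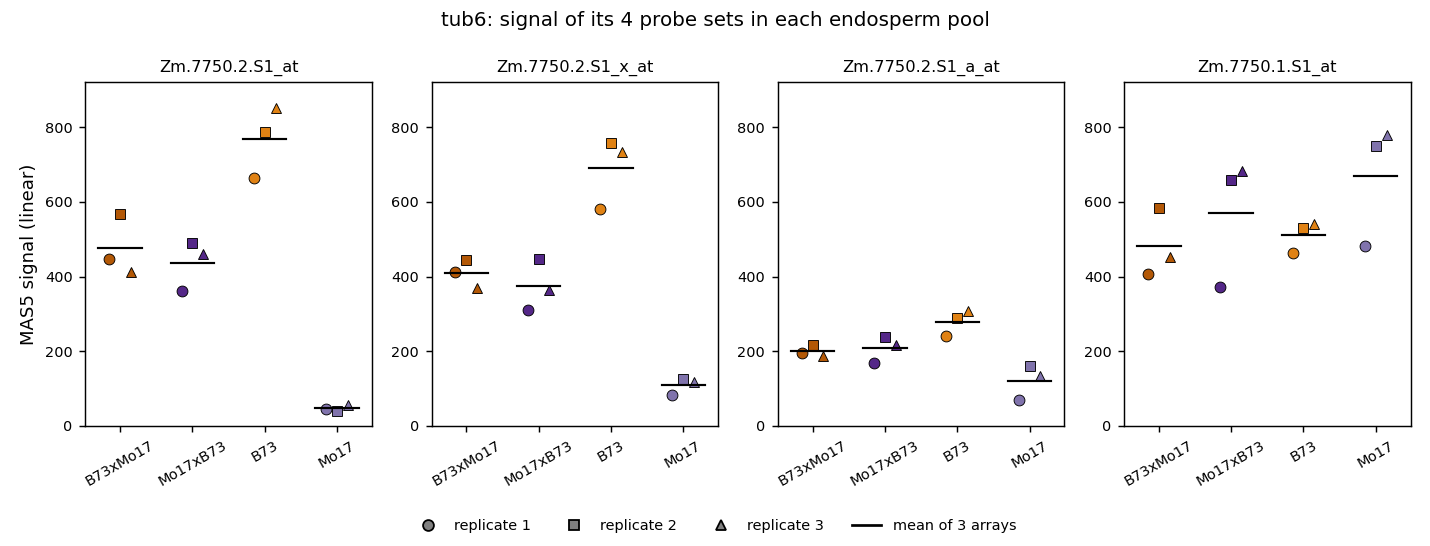
MAS5 signal (linear axis from 0) of the 4 tub6 probe sets in each endosperm pool, with the genotypes along each panel, a symbol for each replicate and a bar at the mean of 3 arrays. On the target 2 S1_at set the Mo17 arrays sit between 40.7 and 55.2 and the B73 arrays between 663 and 852, with both hybrids between, whereas on the target 1 set the 4 genotypes overlap.

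The hybrids' tub6 level was placed between the inbreds on the linear scale, where 0 is the Mo17 level and 1 the B73 level of the same date. Dose alone places B73xMo17 at 0.667 and Mo17xB73 at 0.333. On the target 2 S1_at set the positions were 0.602 ± 0.136 in B73xMo17 and 0.540 ± 0.0531 in Mo17xB73 (SD, n = 3). The S1_x_at set of that target gave 0.525 ± 0.126 in B73xMo17 and 0.456 ± 0.0553 in Mo17xB73. Its S1_a_at set gave 0.497 ± 0.211 in B73xMo17 and 0.561 ± 0.0692 in Mo17xB73. In each case the positions of the hybrids lay closer to each other than the dose values do, and Mo17xB73 was above 0.333 on all 3 dates. These positions, like those below for other genes, use signals as deposited, and positions after scaling were not computed. The Mo17xB73 arrays were brighter than the B73 arrays, with mean signals after trimming of 377 to 416 against 306 to 367, which raises the positions of Mo17xB73. Over the 818 probe sets at least 2-fold higher in B73, the median position was 0.716 in B73xMo17 and 0.428 in Mo17xB73. The quartiles were 0.593 and 0.844 in B73xMo17, and 0.317 and 0.567 in Mo17xB73. All 3 tub6 means in Mo17xB73 lay within these quartiles, and in B73xMo17 only that of the S1_at set did.

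The hybrids were also set against each other for tub6. The log2 difference of B73xMo17 minus Mo17xB73 was 0.12 (SE 0.19) on the target 2 S1_at set, 0.14 (SE 0.19) on the target 2 S1_x_at set, -0.05 (SE 0.22) on the target 2 S1_a_at set and -0.21 (SE 0.23) on the target 1 set. The arrays of the hybrids overlapped on all 4 probe sets. After the arrays had been scaled to a common brightness the difference ran from 0.29 to 0.31 on the target 2 S1_at set and from 0.30 to 0.31 on the S1_x_at set. On the S1_a_at set its sign turned, at 0.11 to 0.12, and on the target 1 set it was -0.04 to -0.03.

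Each hybrid was also compared with its parents' mean signal, weighted 2 parts female to 1 part male. On the target 2 S1_at set the log2 difference was -0.15 (SE 0.18) in B73xMo17 and 0.58 (SE 0.17) in Mo17xB73. With scaled arrays Mo17xB73 gave 0.35 to 0.39 on it. On the target 2 S1_x_at set the differences were -0.27 in B73xMo17 and 0.29 in Mo17xB73, and on the target 2 S1_a_at set -0.16 in B73xMo17 and 0.27 in Mo17xB73. Scaled arrays brought Mo17xB73 to 0.09 to 0.12 on the S1_x_at set and 0.12 to 0.15 on the S1_a_at set. On the target 1 set, where the inbreds overlap, they were -0.23 in B73xMo17 and -0.14 in Mo17xB73, and without replicate 1 of Mo17xB73 the value for that hybrid was 0.14. Where the expectation was taken as the weighted mean of log2 levels, the target 2 S1_at set stood at 0.57 in B73xMo17 and 1.69 in Mo17xB73, and the sign for B73xMo17 turned. It turned on the S1_x_at set too, at 0.12 in B73xMo17 and 0.84 in Mo17xB73.

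tub5 had probe sets from a pair of targets, and they too differed from each other. On the S1_a_at set of its target 2 the signals were 312, 296 and 255 in B73xMo17, 299.8, 373 and 365 in Mo17xB73, 291, 274 and 276 in B73, and 121, 181 and 175 in Mo17. The 3 Mo17 arrays were below all others, and the other genotypes overlapped with their neighbours. The order of means was Mo17xB73 at 346 ± 40.4, B73xMo17 at 287 ± 29.6, B73 at 280.2 ± 9.23 and Mo17 at 159 ± 32.9 (SD, n = 3). The log2 difference of B73 minus Mo17 was 0.80 (SE 0.18), and within dates it was 1.19, 0.57 and 0.63. B73xMo17 minus Mo17xB73 was -0.26 (SE 0.18), and -0.09 after each of the 3 scalings.

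As deposited, Mo17xB73 carried more of this tub5 signal than either inbred on each date. For replicate 1 the gap to B73 was small, at 299.8 against 291. There the Mo17xB73 array was also the brighter, with a mean signal after trimming of 383 against 306, and scaled by these means the order turns. The Mo17xB73 mean exceeded the dose-weighted mean of its parents by 0.77 (SE 0.15) on the log2 scale, and over the scalings by 0.63 to 0.66. For B73xMo17 the same difference was 0.25 (SE 0.16). In Mo17xB73 it was the widest such difference among the 10 beta tubulin probe sets as deposited, but not with the log2 expectation, where it was 0.82 and the tub6 target 2 S1_at set stood at 1.69.

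On the target 1 set of tub5 the inbreds could not be separated. The signals were 348, 473 and 286 in B73xMo17, 481, 621 and 491 in Mo17xB73, 357, 444 and 485 in B73, and 250.5, 469.9 and 480.2 in Mo17. As deposited, all Mo17xB73 arrays lay above all B73xMo17 arrays, and the inbreds overlapped each other. The Mo17xB73 arrays were also brighter, with mean signals after trimming of 377 to 416 against 340 to 353, and scaled by these means the hybrids overlap. B73xMo17 minus Mo17xB73 was -0.53 (SE 0.24) on the log2 scale, and -0.46, -0.38 and -0.76 within dates. After scaling it was -0.37 to -0.36. The inbred difference was 0.14 (SE 0.24), and it was 0.36 to 0.37 after the scalings and -0.15 without replicate 1 of Mo17. Across the 12 arrays the log2 levels of both tub5 probe sets correlated at 0.53, while the target 2 set of tub5 and the target 2 S1_at set of tub6, both low in Mo17, correlated at 0.85.

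Of the other 4 beta tubulins, 1 rose and 2 fell in B73 relative to Mo17 (limma, adjusted p under 0.05), where 43.1% of all probe sets passed the same test, 13.5% higher and 29.5% lower. Their median log2 difference was -0.25, against -0.22 over all probe sets. In the reciprocal hybrids 0 rose and 1 fell in B73xMo17 relative to Mo17xB73, where 11.9% of all probe sets passed, 3.11% higher and 8.79% lower. Their median was -0.05, against -0.14 over all.

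tub2 was lower in B73 than in Mo17 and lower in B73xMo17 than in Mo17xB73. Its only probe set gave 42.9, 54.4 and 67.1 in B73xMo17, 109, 99.4 and 109 in Mo17xB73, 48.6, 38.2 and 56.0 in B73, and 110.3, 115 and 112 in Mo17. The arrays formed a low pair of genotypes, with B73 as the parent written first, and a high pair, with Mo17 as the parent written first, and the pairs did not overlap. Mo17 had 2.37 times the mean of B73, a log2 difference of -1.10 for B73 minus Mo17 (SE 0.19, adjusted p = 7.72e-05 by limma). Mo17xB73 had 1.94 times the mean of B73xMo17, a log2 difference of -0.85 for B73xMo17 minus Mo17xB73 (SE 0.19, adjusted p = 0.00478). Both differences passed in all 20 alternative settings, where the adjusted p ran from 4.53e-05 to 0.00137 for the inbreds and from 0.00278 to 0.0275 for the hybrids. Within dates the hybrids differed by -1.17, -0.76 and -0.63.

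On the scale from Mo17 to B73, tub2 stood at 0.895 ± 0.171 in B73xMo17 and 0.0917 ± 0.103 in Mo17xB73 (SD, n = 3), nearer to the first parent than dose would place them. The medians of the 1266 probe sets at least 2-fold higher in Mo17 were 0.749 in B73xMo17 and 0.315 in Mo17xB73. The distance of tub2 from the dose-weighted parents did not pass the test, at -0.30 in B73xMo17 (SE 0.16, adjusted p = 0.679 by limma) and 0.20 in Mo17xB73 (SE 0.17, adjusted p = 0.953).

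tub4 fell in B73 relative to Mo17. Its only probe set gave 419, 489 and 401 in B73xMo17, 675, 411 and 569.7 in Mo17xB73, 327, 347 and 375 in B73, and 503, 569.6 and 551 in Mo17. The inbreds did not overlap, whereas 1 array of Mo17xB73 lay among those of B73xMo17. The log2 difference was -0.62 for B73 minus Mo17 (SE 0.19, adjusted p = 0.0114 by limma), and -0.38 with an adjusted p of 0.0561 after quantile normalization. B73xMo17 minus Mo17xB73 was -0.31 (adjusted p = 0.301), and -0.14 after the scalings.

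tub7 rose in B73 relative to Mo17. Its signals were 4404, 5030.0 and 4743 in B73xMo17, 3704, 3535 and 3964 in Mo17xB73, 4293, 4345 and 4636 in B73, and 2542, 3501 and 3548 in Mo17. The B73 arrays were all above the Mo17 arrays and the B73xMo17 arrays all above the Mo17xB73 arrays. The log2 difference of B73 minus Mo17 was 0.48 (SE 0.14, adjusted p = 0.0106 by limma), and its adjusted p was 0.0530 in a fit of the inbreds alone. That of B73xMo17 minus Mo17xB73 was 0.34 (SE 0.14, adjusted p = 0.135), and it did not pass as deposited. It passed after each of 3 scalings, at 0.47 to 0.51 with adjusted p of 0.000561 to 0.00105. It also passed in a fit of the hybrids alone (adjusted p = 0.0393) and without replicate 1 of Mo17 (adjusted p = 0.0181).

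tub3 gave no call in either comparison. The signals were 279.8, 186 and 254 in B73xMo17, 229.6, 201 and 179 in Mo17xB73, 236, 197 and 234 in B73, and 169, 227 and 214 in Mo17. All 4 genotypes overlapped. The log2 difference was 0.13 for B73 minus Mo17 (adjusted p = 0.614 by limma) and 0.21 for B73xMo17 minus Mo17xB73 (adjusted p = 0.489), each with an SE of 0.18. After the scalings these were 0.32 to 0.35 and 0.38, still not called.

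**Figure D2:**
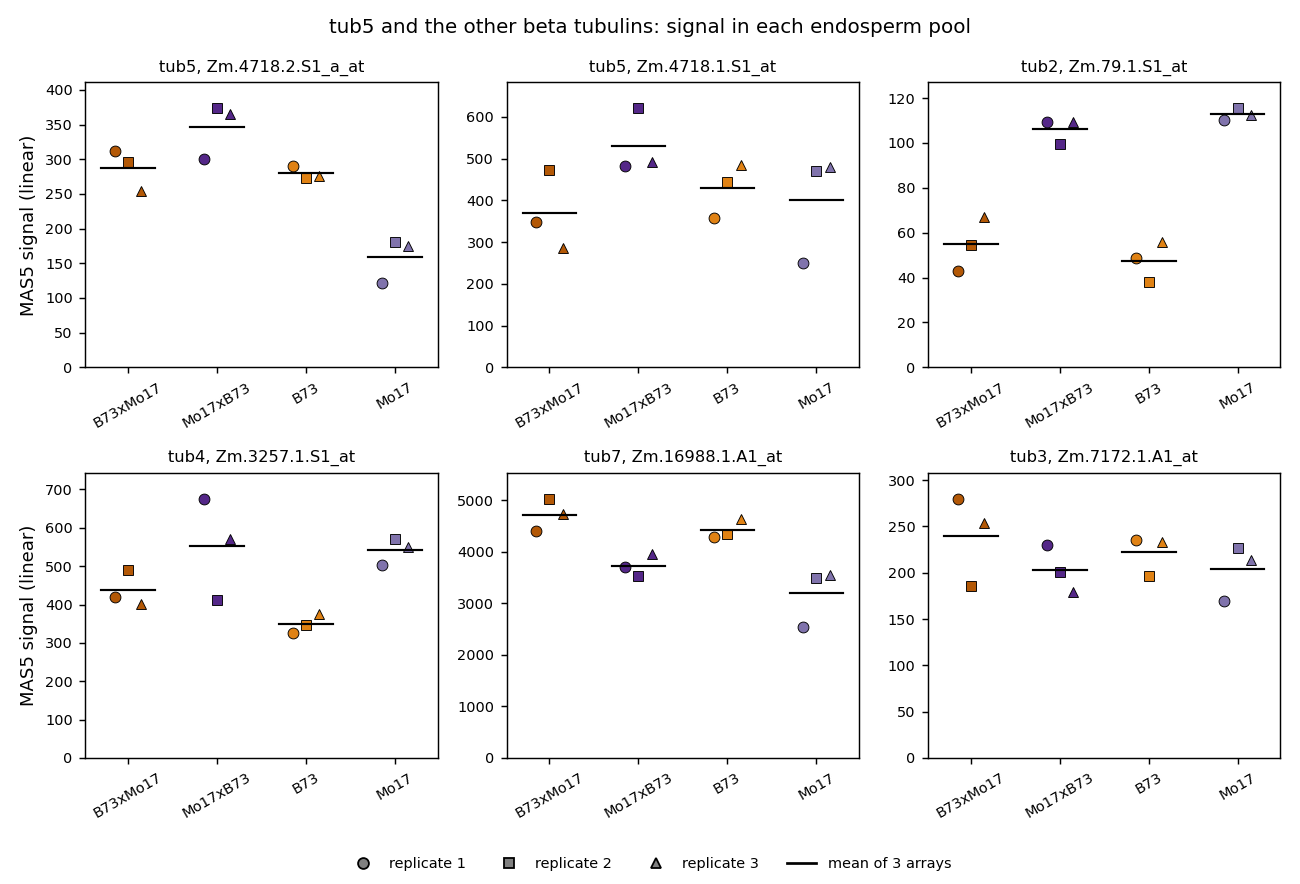
MAS5 signal (linear axes from 0, a scale of its own in each panel) of both tub5 probe sets and of tub2, tub4, tub7 and tub3, with the genotypes along each panel, a symbol for each replicate and a bar at the mean of 3 arrays. tub2 splits into B73xMo17 and B73 at 38.2 to 67.1 and Mo17xB73 and Mo17 at 99.4 to 115, and tub3 shows no separation.

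Against the dose-weighted parents 0 of the 4 beta tubulins passed in B73xMo17, where 0.715% of all probe sets did (0.204% higher, 0.511% lower). In Mo17xB73 0 of 4 passed, where 0.57% did (0.528% higher, 0.0426% lower). At an unadjusted p under 0.05 limma also gave 0 of 4 in each hybrid, with no share over all probe sets to set beside it. The log2 differences ran from -0.30 to 0.24 in B73xMo17 and from -0.04 to 0.20 in Mo17xB73.

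Markers of other cell types moved in the same comparisons. The summed signal of 12 probe sets for the basal transfer layer, the cells that take up sugar at the kernel's base, was 3377 to 4647 in B73xMo17, 13068 to 15580.5 in Mo17xB73, 2742 to 3199 in B73 and 7608 to 16131 in Mo17. Of the 11 tested, 10 were lower in B73xMo17 than in Mo17xB73 (8.79% over all probe sets) and 8 lower in B73 than in Mo17 (29.5% over all). The sum of 7 embryo markers was 636 to 1723 in B73xMo17, 1833 to 2651 in Mo17xB73, 476 to 889.8 in B73 and 1295 to 2309.5 in Mo17. Of the 4 embryo markers tested, 0 were higher and 3 lower in B73 than in Mo17 (13.5% and 29.5% over all). The other, rab17, did not pass and averaged 26.8 in B73 and 23.4 in Mo17. Between the hybrids 0 were higher and 2 lower in B73xMo17 (3.11% and 8.79% over all). For 9 aleurone probe sets the sum was 1069 to 3093 in B73xMo17, 3312 to 4274 in Mo17xB73, 1385 to 4372 in B73 and 1739.8 to 2588 in Mo17. Of the 5 aleurone probe sets tested, 2 were higher and 2 lower in B73 than in Mo17 (13.5% and 29.5% over all). Their sum therefore hides opposite moves between the inbreds. Between the hybrids 0 were higher and 3 lower in B73xMo17 (3.11% and 8.79% over all). Between the inbreds tub2 and tub4 lay in the direction of most tested transfer layer and embryo markers. The target 1 set of tub6 did so only weakly, at -0.36 as deposited and -0.14 to -0.10 after the scalings, and its inbred arrays overlapped. The 3 target 2 sets of tub6, the target 2 set of tub5 and tub7 lay in the direction opposite to those markers, and the target 1 set of tub5 turned its sign with 1 array left out. The sum over 23 starchy endosperm markers was 165219 to 185356 in B73 and 112507 to 132692 in Mo17. Most of that gap came from the delta zein gene dzs18, singled out after its values were seen, whose 4 probe sets summed to 38813 to 41905 in B73 and 291 to 842 in Mo17. The other 19 summed to 124901 to 143451 in B73 and 111916 to 131850 in Mo17, and overlapped. Of the 23 tested, 7 were higher in B73 (13.5% over all probe sets), 1 was lower and 15 did not pass, with a median of 0.14. The part of these cell types in the tubulin values was not tested.

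Tubulins outside the beta family were measured by 11 probe sets of 6 genes, of which 8 were tested: alpha tubulins tua1, tua4, tua5 and tua6, which supply the partner of beta tubulin, and gamma tubulins tubg1 and TUBG2, which seed new microtubules. Between the inbreds 1 rose and 2 fell in B73, where 43.1% of all probe sets passed, with a median log2 difference of -0.10 against -0.22 over all. Between the hybrids 0 rose and 2 fell in B73xMo17, where 11.9% of all passed, with a median of -0.25 against -0.14. Against the dose-weighted parents 0 of 8 passed in either hybrid by limma. At an unadjusted p under 0.05 1 did in B73xMo17 and 0 in Mo17xB73, with no share over all probe sets to set beside these counts.

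Both falls were probe sets of the gamma tubulin gene tubg1, which was the tubulin highest in Mo17 relative to B73. The S1_at set of its target 3 gave 112, 145 and 119.8 in B73xMo17, 196, 239 and 231 in Mo17xB73, 43.5, 54.0 and 74.7 in B73, and 287, 415 and 431 in Mo17. None of the 4 genotypes overlapped, and the order B73, B73xMo17, Mo17xB73, Mo17 followed the dose of the Mo17 genome. Mo17 had 6.58 times the mean of B73, a log2 difference of -2.52 (SE 0.20, adjusted p = 2.41e-09 by limma) for B73 minus Mo17. B73xMo17 minus Mo17xB73 was -0.78 (SE 0.20, adjusted p = 0.0146). That call was lost without replicate 1 or 3 of B73xMo17 (adjusted p = 0.0533 and 0.0573) and without replicate 2 or 3 of Mo17xB73 (adjusted p = 0.0607 and 0.0601). The S1_a_at set of its target 5 gave -2.39 for the inbreds (adjusted p = 2.91e-09) and -0.92 for the hybrids (adjusted p = 0.00342), which passed in all 20 alternatives.

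The positions of tubg1 were 0.780 ± 0.0816 in B73xMo17 and 0.475 ± 0.0942 in Mo17xB73 on the target 3 set, and 0.793 ± 0.0512 in B73xMo17 and 0.401 ± 0.119 in Mo17xB73 on the target 5 set (SD, n = 3). The hybrids stood apart on both, unlike on the tub6 probe sets, where they overlapped. That contrast between genes was not tested. The plot of positions shows tub6, tub2 and tubg1 side by side.

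**Figure D3:**
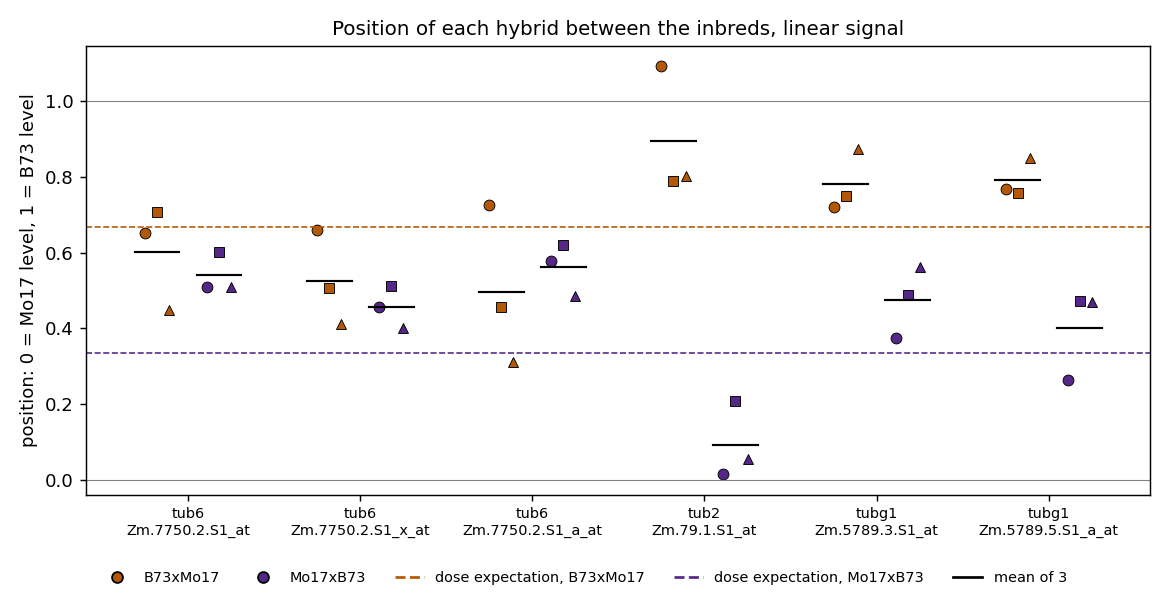
Position of each hybrid between the inbreds on the linear scale of the signals as deposited (0 is the Mo17 level and 1 the B73 level of the same crossing date) for those tubulin probe sets whose inbreds were 2-fold or more apart. Symbols are replicates, bars are means of 3, and dashed lines mark the dose values 0.667 and 0.333; tub2 lies at 0.895 in B73xMo17 and 0.0917 in Mo17xB73, and the tub6 means lie between 0.456 and 0.602, with single dates from 0.310 to 0.725.

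Among the alpha tubulins, tua5 rose in B73, by 0.52 on the log2 scale (SE 0.20, adjusted p = 0.0460 by limma), with signals of 560.1, 404 and 462 in B73 and 289, 379.9 and 317 in Mo17. Every B73 array was above every Mo17 array. The call was lost in 9 of 20 alternatives, 7 of which left out an array: replicate 3 of B73xMo17, replicate 2 or 3 of Mo17xB73, replicate 1 or 3 of B73 and replicate 1 or 3 of Mo17, with adjusted p of 0.0541 to 0.190. For tua1, on an s_at probe set, a kind shared by several genes, the difference was 0.33 (adjusted p = 0.122), and it passed after all 3 scalings, at 0.54 to 0.55. tua4 was at 0.08 and 0.01 on its probe sets (adjusted p = 0.669 and 0.939). Its a_at set passed after all 3 scalings, at 0.30 to 0.31. Its s_at set passed after median centring and trimmed mean scaling, at 0.24 and 0.23. tua6 was at -0.22 (adjusted p = 0.367) and TUBG2 at -0.28 (adjusted p = 0.396), and without replicate 1 of Mo17 they passed, at -0.47 and -0.60. After the scalings tua6 was at 0.00 and TUBG2 at -0.10 to -0.06. None of the 6 tested probe sets of tua1, tua4, tua5, tua6 and TUBG2 passed between the hybrids as deposited, and tua1 did after all 3 scalings, at 0.32 to 0.33.

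**Figure D4:**
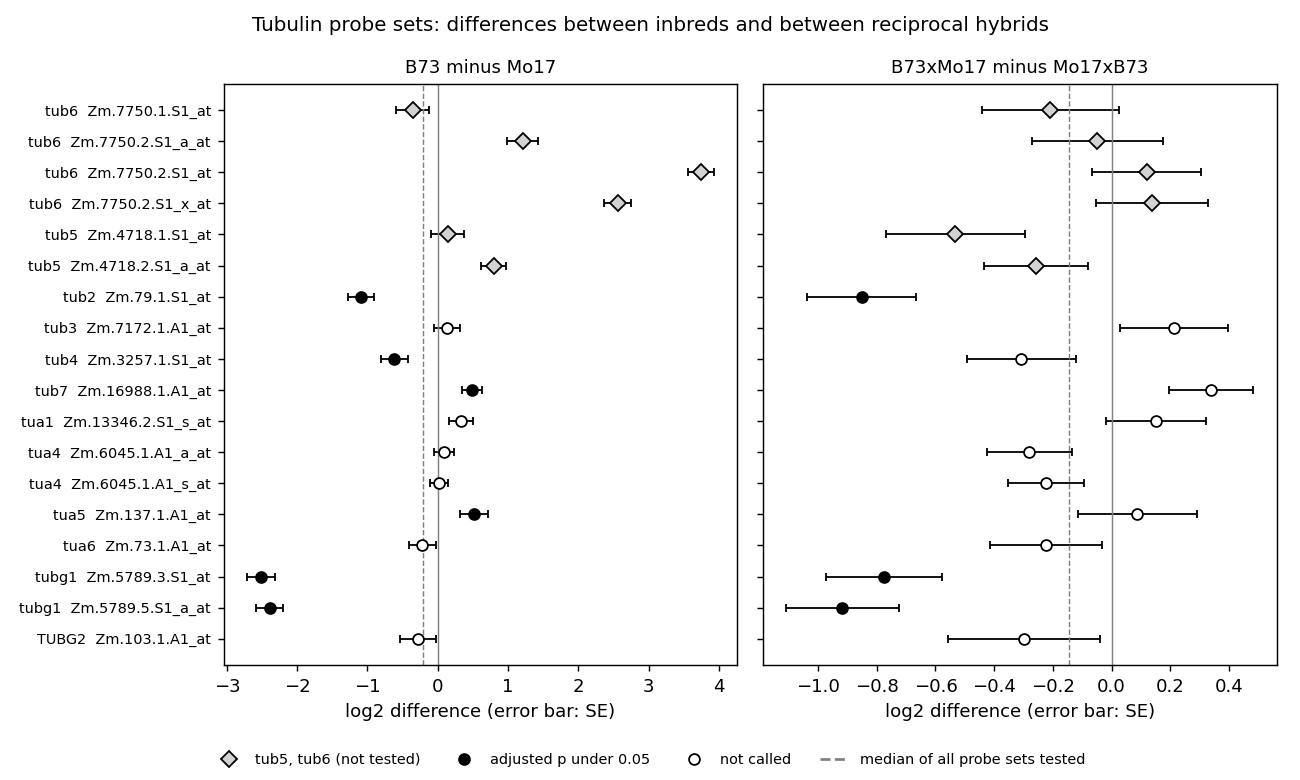
Log2 differences (horizontal axes, with bars of 1 SE) of the 18 tubulin probe sets tested or described, B73 minus Mo17 on the left and B73xMo17 minus Mo17xB73 on the right. Diamonds are tub5 and tub6, not tested, filled circles have an adjusted p under 0.05, open circles do not, and the dashed line is the median of all 11747 probe sets. Between the inbreds tub6 spans -0.36 to 3.74 over its 4 probe sets and tubg1 lies at -2.52 and -2.39.

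Other genes of the cytoskeleton, of the cell wall and of division were counted in the same way. Over all probe sets 13.5% rose and 29.5% fell in B73, and 3.11% rose and 8.79% fell in B73xMo17, and the counts below stand beside those shares. Of 5 tested probe sets for the actin cytoskeleton, 0 rose and 3 fell in B73 relative to Mo17, and 0 rose and 1 fell in B73xMo17 relative to Mo17xB73. prf5, a profilin that binds actin monomers, was at -0.66 between the inbreds (adjusted p = 0.00348 by limma) and -0.53 between the hybrids (adjusted p = 0.0476). The list holds 3 probe sets of ADF3, an actin depolymerizing factor, and 2 of them passed between the inbreds. ADF3 was at -0.65 on its x_at set (adjusted p = 0.00405) and -0.36 between the hybrids (adjusted p = 0.169). PRO4, another profilin, named after its values were seen, was at 0.36 between the inbreds (adjusted p = 0.0789). The median of the list was -0.58 for the inbreds and -0.32 for the hybrids, against -0.22 and -0.14 over all probe sets.

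Kinesins, the motors that walk on microtubules, had 6 tested probe sets, of which 0 rose and 3 fell in B73 and 0 rose and 1 fell in B73xMo17. KIN8 was at -0.78 between the inbreds (adjusted p = 0.0149 by limma) and -0.73 between the hybrids (adjusted p = 0.0574). kin11 was at -0.62 between the inbreds (adjusted p = 0.0197) and -0.69 between the hybrids (adjusted p = 0.0345). Both were dim, with means of 24.2 and 25.9 in B73xMo17 and 47.1 and 48.5 in Mo17xB73.

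For cellulose synthases, whose paths in the membrane follow microtubules, of 10 tested probe sets 2 rose and 2 fell in B73, a share near that of all probe sets, and 0 rose and 2 fell in B73xMo17. Both rises were probe sets of CesA-4, which was at 1.66 on its x_at set (adjusted p = 1.4e-06 by limma), with 84.1 ± 9.56 in B73 and 19.5 ± 4.52 in Mo17 (SD, n = 3), and cesa6 at -1.06 (adjusted p = 0.000312). Between the hybrids cesa2 was at -0.81 (adjusted p = 0.0169) and CesA-1 at -0.66 (adjusted p = 0.0314).

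For the cell cycle, of 13 tested probe sets 2 rose and 5 fell in B73, and 0 rose and 2 fell in B73xMo17. pcna2, which encodes the clamp that holds DNA polymerase on its template, was at -1.70 between the inbreds (adjusted p = 6.01e-05 by limma) and -1.13 between the hybrids (adjusted p = 0.0124). pcna1, a related clamp gene, was at -0.93 between the hybrids (adjusted p = 0.0194). MCM6, part of the helicase that opens DNA for replication, was at 0.83 between the inbreds on its a_at set of target 4 (adjusted p = 0.00249), whereas its other tested sets were at -0.03 and 0.02 (adjusted p = 0.932 and 0.946). No member of these 4 lists passed against the dose-weighted parents in either hybrid by limma. At an unadjusted p under 0.05, 2 of the 34 tested probe sets did in B73xMo17 and 5 in Mo17xB73. The share of all probe sets at that threshold is not given here, so these counts are not read as a result.

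The named genes most like each tub6 and tub5 probe set were ranked by Pearson's r of the log2 level over the 12 arrays, which fall into 4 genotypes, among 869 to 871 candidates. For the target 2 S1_at set they were his2b5 (r = 0.98), PDC, HMT-2, dzs18 and MRP2 (r = 0.97). For the target 2 S1_x_at set they were eif7 (r = 0.99), MRP2, por1, HMT-2 and abp4 (r = 0.96). Both lists thus hold MRP2 and HMT-2. For the target 2 S1_a_at set they were C4ppdkZm1 (r = 0.97), MCM6, adss1, AN3 and igl1 (r = 0.93). For the target 1 set they were tacs1 (r = 0.93), MCM7, nfd101, dmt101 and ROA (r = 0.88), none of them on the lists of the other tub6 probe sets. For the target 2 set of tub5 they were aoc1 (r = 0.95), phb3, dzs18 on a pair of probe sets and his2b5 (r = 0.86). For its target 1 set they were RP-P0 (r = 0.88), hmg2, eno1, RPL10 and etr2 (r = 0.84). These values describe likeness over 4 genotypes and were not tested.

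Some members varied with the replicate number, which marks the crossing date, in the signals as deposited. Replicate 1 was also the dimmest array in B73 (306) and in Mo17 (304). It was not the dimmest in B73xMo17 (353, against 351 and 340) or in Mo17xB73 (383, against 377 and 416). The part of array brightness in these deviations was not tested. On the target 1 set of tub6 all 4 arrays of replicate 1 were below their genotype's mean, by 0.34 on average on the log2 scale, with replicates 2 and 3 at 0.20 and 0.14 above. Its target 2 S1_at set deviated by -0.14, 0.08 and 0.06 on replicates 1, 2 and 3. The target 1 set of tub5 deviated by -0.26, 0.24 and 0.02. These deviations were small beside the tub6 difference between the inbreds, and as wide as the differences on the target 1 set.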

How the data were processed

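Single-colour Affymetrix arrays measured RNA from 12 endosperm pools. The authors deposited intensity on a linear scale, as a single number for every array and probe set. The submitters' processing notes name MAS5 for them; no version or scaling target is given in the sources used here, and no detection call was used. The tub5 and tub6 members, the gene lists and the tests were chosen with earlier results of these data known. Named were all tubulins, the 2 members of each further list with the smallest p per comparison, and the 5 most correlated genes of each tub5 and tub6 probe set.

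Of 17734 probe sets, 113 controls and the dimmest 33.3% by mean signal were left out. limma 3.58.1 in R 4.3.3 (lmFit, eBayes with trend) fitted log2(signal + 10.6) over 4 genotypes with 8 residual degrees of freedom, with no scaling and Benjamini-Hochberg adjustment over 11747 probe sets, two-sided. Hybrids were set against log2 of the parents' linear mean, weighted 0.667 to 0.333, with delta-method standard errors. Of the 17734, 1452 had 1 gene symbol, 1 several and 16281 none, and tubulin names came from symbols or synonyms. No genome coordinates are given, since no build is named. Tested on simulated data of 11747 probe sets, 200 of them changed, 2-fold changes were recovered at 90% and 83% for the inbred and reciprocal comparisons. The recovery of 1.5-fold changes was 17% and 16%, and 8.55% and 6.6% of the calls were false. In the data 43.1% and 11.9% of probe sets were called, far more than the simulation changed, so these rates need not hold here. The number of arrays limits the precision, and the median standard error was 0.20.

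The replicate number marks a shared crossing date, per the labels, and so pairs samples across genotypes. As a check, each array's log2 deviations from its group average were correlated across groups: same-numbered pairs gave 0.0434 to 0.412 (18 pairs, 13 over 0.1), the others -0.322 to 0.167 (36 pairs). Alternatives were 3 scalings, constants of 1 and 50, no filter, the replicate block, only the groups compared, a log2 dose expectation and each array left out.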

Additional observations from a re-analysis of the deposited data

Results flagged for a closer look

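For 3 tubulin probe sets the hybrids lay on opposite sides of their dose-weighted parents on every crossing date, and the difference between the hybrids in this respect was not tested. For tub6 on the target 2 S1_x_at set the log2 difference from the parents averaged -0.27 in B73xMo17 (from -0.50 to -0.01 over 3 dates) and 0.29 in Mo17xB73 (0.17 to 0.40). For tub2 it averaged -0.30 in B73xMo17 (-0.58 to -0.14) and 0.20 in Mo17xB73 (0.13 to 0.26). For tua4 on its a_at set it averaged -0.16 in B73xMo17 (-0.33 to -0.07) and 0.15 in Mo17xB73 (0.15 to 0.16). The values are as deposited: after the scalings Mo17xB73 stood at 0.09 to 0.12 for this tub6 set, 0.07 to 0.16 for tub2 and 0.05 to 0.08 for tua4. With the expectation on the log2 scale tub6 in B73xMo17 was at 0.12, so the hybrids no longer lay on opposite sides. None of the values for tub2 and tua4 passed the test against the parents, and tub6 was not tested.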

How the results depend on the processing

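With the replicate number as a block, which pairs arrays of a crossing date, 3 of the 4 other beta tubulins passed between the inbreds (3 without it) and 1 between the reciprocal hybrids (1 without it), and 0 against the parents. Over all probe sets the block gave 5621 calls between the inbreds and 2091 between the hybrids, against 5058 and 1398 without it. Against the dose-weighted parents it gave 169 calls in B73xMo17 and 164 in Mo17xB73, against 84 and 67. The block ended no call on a tubulin.

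Leaving out each array in turn gave 3849 to 6780 calls between the inbreds, 751 to 2649 between the hybrids, 36 to 320 for B73xMo17 against the parents and 19 to 118 for Mo17xB73, the highest each time without replicate 1 of Mo17. The lowest were without replicate 2 of Mo17, replicate 3 of Mo17xB73, replicate 3 of B73xMo17 and replicate 3 of Mo17xB73. Among the 4 beta tubulins it gave 3 between the inbreds throughout and 1 to 2 between the hybrids, with 2 without replicate 1 of Mo17.

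The count between the hybrids was 2646 after quantile normalization, 2323 after median centring, 2353 after trimmed mean scaling and 2167 with only those groups fitted; of the 4 beta tubulins 2 then passed each time (tub2 and tub7). The share higher in B73xMo17 was 26.1% as deposited and 53.0%, 55.7% and 53.5% after the scalings, and that higher in B73 was 31.4% and 47.4%, 50.4% and 48.7%. For B73xMo17 against the parents the count was 209, 143 and 146 after the scalings, 35 with no filter and 336 with a log2 expectation. For Mo17xB73 it was 169 after quantile normalization, 33 with a constant of 1, 24 with no filter and 512 with a log2 expectation. The share higher among these was 28.6% in B73xMo17 and 92.5% in Mo17xB73 as deposited, 86.3% in B73xMo17 with the log2 expectation, and 42.0% to 61.5% in Mo17xB73 after the scalings. The causes were not tested. No tubulin value that had passed turned its sign. For tub6 on the target 2 S1_at set the inbred difference was 3.99 with a constant of 1 and 3.06 with a constant of 50. Detection calls were not used here, so dim values such as tub6 in Mo17 have no stated floor.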

Other observations

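The array holds 4 more probe sets whose names share the stem of the tub6 ones but which the annotation gives no gene. The brightest, the S1_at set of target 3, averaged 958 ± 65.3 in B73xMo17, 1162 ± 86.0 in Mo17xB73, 894 ± 47.8 in B73 and 1203 ± 195 in Mo17 (SD, n = 3). The S1_x_at set of target 4 averaged 65.6 ± 10.9 in B73xMo17, 70.7 ± 24.7 in Mo17xB73, 81.0 ± 0.647 in B73 and 49.5 ± 15.9 in Mo17. The A1_at set of target 3 stayed between 36.9 and 47.6 in its genotype means. These probe sets were chosen for their names after the tub6 values were seen, and whether they belong to tub6 was not tested.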
